A study of Mus musculus with 18 samples.

Results

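The 8 genes described here are the sestrins Sesn1, Sesn2 and Sesn3, Ddit4 (which encodes REDD1), Tsc1 and Tsc2 of the tuberous sclerosis complex, and the Rag GTPase genes Rragc and Rragd. They were taken by gene name from mRNA-seq tables of 18 samples, each listing 20207 genes, and all 8 were present in every table. All 8 also had at least 1 read in each of the 18 samples, as did 12731 genes in total, and these 12731 genes were tested. The cells were NIH3T3 mouse fibroblasts carrying a stably integrated DD-GFP fusion, in which a destabilizing domain (DD) made from mutant FKBP12 is joined to superfolder GFP, and they were a FACS-selected pool with high DD-GFP. The Shield-1 (S1) ligand, which keeps the DD folded, was present in every culture used here, the controls included. There were 6 groups of 3 samples: control (37°C, no added stress, 0 min), heat shock (HS, 42°C) for 45 or 135 min, and tunicamycin, an inhibitor of N-linked glycosylation that stresses the endoplasmic reticulum (ER), for 45, 135 or 405 min. The labels number the replicates without saying that they were separate cultures, so p-values measure only the spread between these samples, which may be technical.

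mTORC1 is the kinase complex that promotes protein synthesis and growth when amino acids, energy and growth factors are sufficient, and it is switched on at the lysosome. Amino acids bring it there through the Rag GTPases, which work as pairs of RagA or RagB with RagC or RagD, and growth factors activate it through the small GTPase Rheb. The genes described here act on both routes. Sestrins bind the GATOR2 complex and so hold back the Rag route, with Sestrin2 known as a leucine sensor. REDD1 holds back the Rheb route through the TSC complex, in which TSC2 is the GTPase-activating protein for Rheb and TSC1 stabilizes it. Rragc and Rragd, in contrast, encode subunits that mTORC1 needs for its activation by amino acids, so they are not brakes. Sesn2 and Ddit4 are known as targets of stress-activated transcription factors, ATF4 among them, and Sesn1 and Sesn2 as targets of p53.

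The samples held 33415592 to 66478268 gene reads each, so that 3 reads corresponded to 0.0451 to 0.0898 counts per 1000000 reads (CPM), a floor that covers counting error only. All 9 fibroblast markers examined had a median of at least 1 RPKM (reads per kilobase per 1000000 reads) over the samples, while all 10 epithelial, endothelial, hepatocyte and muscle markers had one below 1 RPKM. Of the 3 leukocyte markers Ptprc had a median of 0 and Csf1r one of 0.494 RPKM, but Cd68, which encodes a lysosomal membrane protein abundant in macrophages, had 5.99 RPKM (3.72 to 7.61). Libraries of 1 group differed mainly along a single axis, which held 66.6% of the spread within groups, and the weights of genes on it rose with transcript GC content (Spearman 0.70 across genes, which are not independent replicates). On this axis replicate 3 of HS 45 min stood at -0.70 against 0.27 and 0.44 for the other two. Replicates 1 and 2 of HS 135 min stood at -0.50 and 0.63, and replicate 1 of tunicamycin 135 min at 0.45. Among all genes tested, the weights of Sesn2 and Ddit4 on the axis lay at percentiles 78.7 and 79.0, and those of Sesn1 and Sesn3 at 20.2 and 18.1.

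The main changes were a rise of Sesn2 and Ddit4 and, late in the tunicamycin course, a fall of Sesn1, Sesn3 and Tsc1. All control samples were from the start of the course, so time in culture was not matched, and its part in these changes was not tested. Sesn2 mRNA was 3.53-fold above control at 135 min of HS, and at 45 and 405 min in tunicamycin it was 2.94-fold and 2.67-fold above control. Ddit4 mRNA was 1.96-fold and 2.38-fold above control at 45 and 405 min in tunicamycin. By 405 min in tunicamycin Sesn1 was 2.53-fold, Sesn3 2.20-fold and Tsc1 1.77-fold below control. Tsc2, Rragc and Rragd passed the test against control in none of the 5 stress groups by edgeR's quasi-likelihood test. Because whole cultures were measured, a lower level can come from fewer cells that make the mRNA or from less of it per cell, and the data cannot tell these apart.

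**Figure D1:**
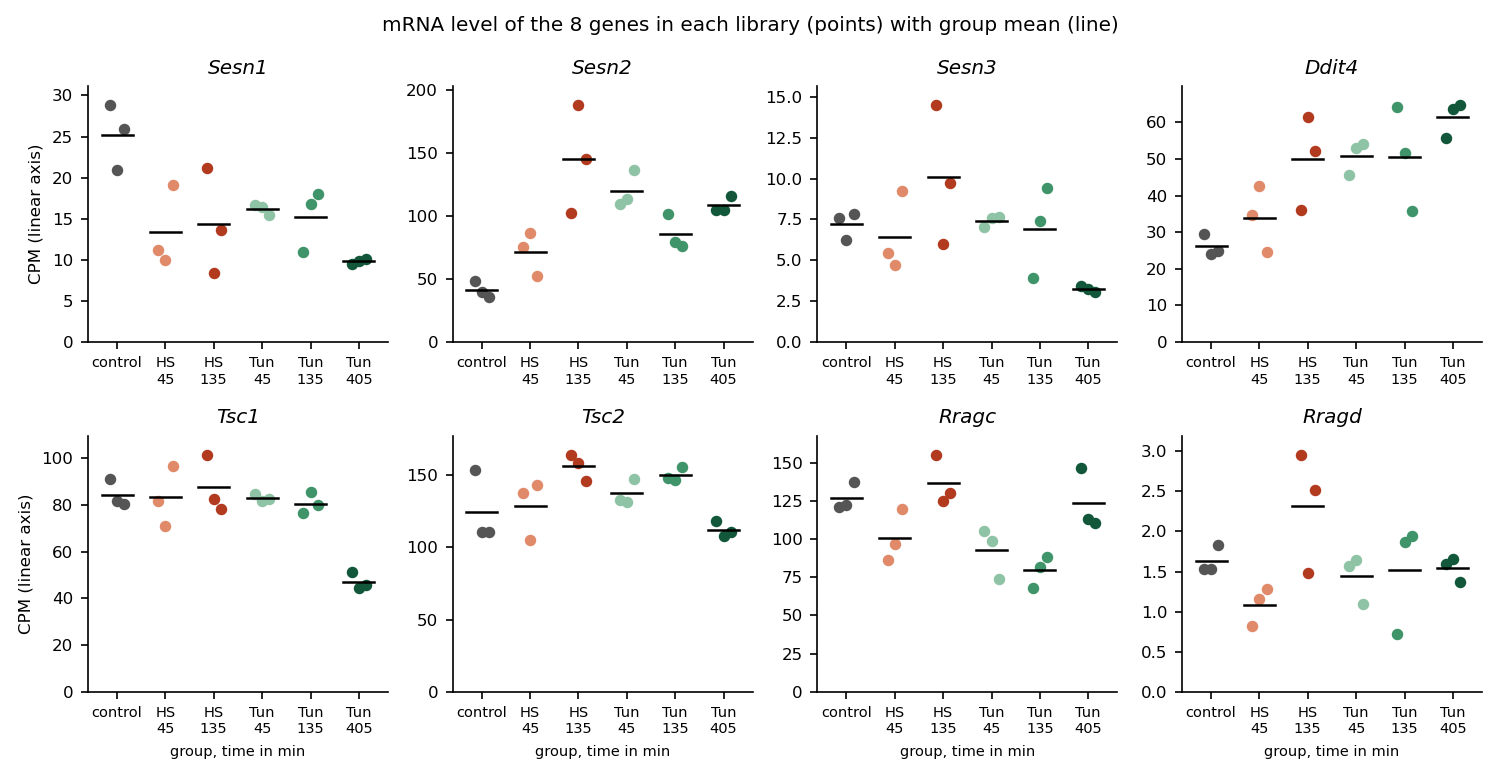
Level of each of the 8 genes in CPM, on linear axes that start at 0, in each of the 18 libraries (points) with the mean of 3 libraries per group (lines), for control, heat shock (HS) and tunicamycin (Tun) with times in min. Sesn2 was lowest in the 3 control libraries (35.8 to 48.6 CPM), and Sesn1, Sesn3 and Tsc1 were low and tightly grouped at 405 min in tunicamycin.

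At 45 min of HS, edgeR's quasi-likelihood test called 0 of the 8 genes at an adjusted p (Benjamini-Hochberg) under 0.05, and the share of all tested genes called was 0% higher and 0% lower. At an unadjusted p under 0.05 it counted 2 of the 8 and 2480 of all genes, while edgeR's exact test and the DESeq2 Wald test called 0 of the 8 and 295 and 451 of all genes. At 135 min of HS, 1 of the 8 was called higher and 0 lower, against 4.75% of all genes higher and 2.64% lower. At 45 min in tunicamycin, 2 of the 8 were called higher and 0 lower, against a background of 4.01% higher and 2.17% lower. At 135 min in tunicamycin 0 of the 8 were called, against 0.126% of all genes higher and 0.00785% lower. Here 4 of the 8 had an unadjusted p under 0.05, and the exact test called 2 and DESeq2 3 of them. In all genes 2369 had an unadjusted p under 0.05, and the exact test called 554 and DESeq2 665. At 405 min in tunicamycin 2 of the 8 were called higher and 3 lower, against 23.3% and 23.5% of all genes. The median log2 fold change of the 8 genes in these 5 comparisons was -0.090, 0.40, 0.023, -0.045 and -0.097, and that of all genes tested lay between -0.032 and -0.0029. All 5 comparisons share the same 3 control samples, which were not matched to the later times.

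Levels of different genes were compared in RPKM, which is per length. In control cells Rragc was the highest with 41.6 ± 4.26 RPKM (SD, n = 3), followed by Tsc2 with 17.5 ± 2.94 RPKM. Ddit4 and Sesn2 came next with 13.2 ± 1.06 and 13.2 ± 1.62 RPKM, and their ranges over the 3 samples overlapped. Tsc1 (9.34 ± 0.30 RPKM), Sesn1 (8.23 ± 1.14 RPKM) and Sesn3 (2.86 ± 0.353 RPKM) followed, and Rragd was last at 0.276 ± 0.0369 RPKM. Apart from Ddit4 and Sesn2, no neighbours in this order overlapped. The order changed under stress, because Sesn2 had the highest mean of the 8 at 135 min of HS (40.2 RPKM) and at 45 and 135 min in tunicamycin (41.1 and 26.7 RPKM). At 45 min in tunicamycin its 3 samples lay above all 3 of Rragc, which was next, and in the other 2 groups the ranges of Sesn2 and Rragc overlapped.

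The mRNAs that rose, those of Sesn2 and Ddit4, are shown here with the 250 bases before their start sites, to let their promoters be compared. Sequences are from RefSeq on build GRCm38.p6, read 5′ to 3′ on the strand of the gene, with each match to CCAAT or its reverse complement in capitals. The Sesn2 window is chr4:132510457-132510706 and the Ddit4 window chr10:59951771-59952020, both on the minus strand.
Sesn2: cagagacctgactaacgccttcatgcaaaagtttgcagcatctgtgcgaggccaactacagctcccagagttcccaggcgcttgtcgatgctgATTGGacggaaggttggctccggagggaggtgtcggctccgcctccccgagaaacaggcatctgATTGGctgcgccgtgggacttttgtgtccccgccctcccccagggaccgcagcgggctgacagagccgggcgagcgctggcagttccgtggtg
Ddit4: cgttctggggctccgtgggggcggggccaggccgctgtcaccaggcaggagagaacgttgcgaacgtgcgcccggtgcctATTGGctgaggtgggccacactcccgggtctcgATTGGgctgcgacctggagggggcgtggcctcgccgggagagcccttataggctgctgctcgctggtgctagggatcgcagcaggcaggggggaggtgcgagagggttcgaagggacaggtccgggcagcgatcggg
Each held 2 matches, both as ATTGG, from -157 to -153 and -93 to -89 before the start site in Sesn2 and from -170 to -166 and -137 to -133 in Ddit4. The search covered both strands of 9 such windows, 2 of them for Sesn1 and 1 for each of the other members. CCAAT was found in 6 of the 9 windows (Sesn1, Sesn2, Sesn3, Ddit4 and Rragc), so it did not set apart the genes that rose, and 33.8% of all 32851 promoters of this length held it. The core of the C/EBP-ATF response element, TGATGNAA, was in 0 of the 9 windows and in 3.45% of all promoters. The letters TTCNNGAA of a heat shock element were likewise in 0 of the 9, against 7.17% of all promoters, and the ER stress element was in 0 of the 9, against 0.113%. An E-box, CACGTG, was found in the Rragc window alone, from -112 to -107, and in 6.02% of all promoters. A window without a match says only that these letters are absent from it.

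Sesn2, on chromosome 4 of mm9 from 132048722 to 132066371 on the minus strand, was above control in all 15 stressed samples. In GENCODE its span shares 6089 bases with Gm12981, a processed transcript on the same strand, so reads there may come from either gene. How far their exons overlap was not examined. The control samples had 48.6, 39.3 and 35.8 CPM. At 45 min of HS the values were 75.5, 86.2 and 52.5 CPM, and at 135 min of HS they were 102, 188 and 145 CPM. Every HS sample lay above every control sample, and the samples at 135 min lay above those at 45 min, but with a wide spread among themselves. Under tunicamycin Sesn2 had 110, 114 and 137 CPM at 45 min. It then had 102, 79.6 and 76.6 CPM at 135 min and 105, 105 and 116 CPM at 405 min. The 3 libraries at 135 min thus all lay below those at 45 and 405 min, and in the order of the group means HS 135 min came first (145 ± 42.9 CPM, SD, n = 3), overlapping with tunicamycin 45 min (120 ± 14.5 CPM), which in turn overlapped with tunicamycin 405 min (109 ± 6.39 CPM).

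The rise of Sesn2 passed the test at 135 min of HS, with a log2 fold change of 1.82 (standard error, SE, 0.272; adjusted p = 0.0179, edgeR's quasi-likelihood test). It passed at 45 min in tunicamycin (log2 fold change 1.55, SE 0.158, adjusted p = 0.00366, edgeR) and at 405 min (1.42, SE 0.149, adjusted p = 0.000212, edgeR). For HS 45 min the difference was 0.79 (SE 0.254, adjusted p = 0.227, edgeR), and at 135 min in tunicamycin it was 1.07 (SE 0.193, adjusted p = 0.0802, edgeR), so neither passed although no stressed sample overlapped with a control sample. The call at 135 min of HS was lost without control replicate 2 or 3 or HS replicate 3 (log2 fold change 1.73 to 1.82, adjusted p = 0.107 to 0.111, edgeR). These fits called 0.118%, 0.0864% and 0.0864% of all genes, against 7.39% with every library. At 45 min of HS, Sesn2 passed once replicate 3, the library that stood apart, was left out (0.97, adjusted p = 0.0065, edgeR), a fit in which 45.4% of all genes were called. With an offset for GC content the value there was 0.25 (adjusted p = 0.291, edgeR), and with a surrogate variable in a fit of all 6 groups it was 0.33 (adjusted p = 0.073, edgeR). At 135 min in tunicamycin, where the samples could be paired with the controls by replicate number, Sesn2 was not called with the replicate as a block either, whereas the exact test and DESeq2 called it (adjusted p = 0.000761 and 0.00081).

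Sesn1, in contrast to Sesn2, had its highest mean level in control. It is annotated in the files on chromosome 10 of mm9 from 41607245 to 41628242 on the plus strand, a shorter model than that of GENCODE, which starts at 41530380, so exons before 41607245 lay outside the span that was counted. Control samples had 28.8, 20.9 and 25.9 CPM. The lowest level was at 405 min in tunicamycin, with 9.51, 9.86 and 10.1 CPM, and these 3 samples spread far less than the controls did. At 45 min in tunicamycin Sesn1 had 16.6, 16.5 and 15.4 CPM, and at 135 min it had 10.9, 16.8 and 17.97 CPM. All 9 tunicamycin samples lay below all 3 controls. The HS samples had 11.1, 9.91 and 19.1 CPM at 45 min and 21.1, 8.44 and 13.6 CPM at 135 min, and only 1 of these 6, replicate 1 at 135 min, reached into the range of the controls. Those high values at 45 and 135 min of HS came from the libraries with the lowest scores on the within-group axis.

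By edgeR's quasi-likelihood test Sesn1 passed at 405 min in tunicamycin only among the 5 comparisons with control, with a log2 fold change of -1.34 (SE 0.158, adjusted p = 0.000366, edgeR). The other 4 values against control were -0.91 for HS 45 min and -0.81 for HS 135 min (adjusted p = 0.232 and 0.167, edgeR) and -0.63 and -0.71 at 45 and 135 min in tunicamycin (adjusted p = 0.0619 and 0.204, edgeR). At 45 min in tunicamycin the exact test and DESeq2 called Sesn1 lower, beside 11.9% and 14.5% of all genes. Leaving out HS 45 min replicate 3, HS 135 min replicate 1 or, at 45 min in tunicamycin, control replicate 1 took Sesn1 past the threshold, with log2 fold changes of -1.26, -1.19 and -0.52 (adjusted p = 0.00451, 0.0402 and 0.041, edgeR). In these fits 45.4%, 19.4% and 19.6% of all genes were called. With the GC offset Sesn1 was not called in any of the 3 comparisons, and its log2 fold change at 45 min of HS was then -0.56 (adjusted p = 0.208, edgeR).

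Sesn3, on chromosome 9 of mm9 from 14080745 to 14130578 on the plus strand, was the least abundant sestrin. Control samples had 7.61, 6.21 and 7.85 CPM, and the 3 samples at 405 min in tunicamycin had 3.45, 3.21 and 3.04 CPM. The latter were lower than every other sample of the series. Sesn3 fell by 1.14 on the log2 scale there (SE 0.164, adjusted p = 0.000956, edgeR). At 45 and 135 min in tunicamycin the log2 differences from control were 0.057 and -0.042 (adjusted p = 0.863 and 0.959, edgeR). At 135 min the 3 samples ran from 3.92 to 9.41 CPM, the lowest being replicate 1, which stood apart on the within-group axis. The HS samples ranged from 4.68 to 14.5 CPM and overlapped with control at both times, with log2 differences of -0.16 at 45 min and 0.48 at 135 min (adjusted p = 0.756 and 0.369, edgeR).

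Summed over the 3 genes, sestrin mRNA was 24.3 ± 2.41 RPKM in control (SD, n = 3) and 26.3 ± 1.10 RPKM at 45 min of HS. These sums overlapped, and in the other 4 groups every sample lay above them. The sum was 48.2 ± 3.36 RPKM at 135 min of HS and 49.8 ± 2.56 RPKM at 45 min in tunicamycin. At 135 and 405 min in tunicamycin it was 34.3 ± 0.703 and 37.6 ± 1.82 RPKM. Unlike the CPM values, these sums carry the authors' scaling by library size, without TMM, so differences between groups depend on it. Mean Sesn2 was 145 CPM at 135 min of HS and 120 CPM at 45 min in tunicamycin. In RPKM these means were 40.2 and 41.1. The make-up of the sum also changed. In control cells Sesn2 made up 54.4 ± 4.04% of it, Sesn1 33.8 ± 2.77% and Sesn3 11.8 ± 1.45%. At 405 min in tunicamycin the shares were 88.6 ± 0.534%, 8.17 ± 0.262% and 3.26 ± 0.351%. The share of Sesn2 was above that of every control sample in all 15 stressed samples, with a lowest value of 63.0% at 45 min of HS. These shares are ratios within a library, so they do not depend on how libraries were scaled to each other, and they are given without a test. They can still shift along the within-group axis, on which Sesn2 lay at percentile 78.7 and Sesn1 and Sesn3 at 20.2 and 18.1. At 45 min of HS the share of Sesn2 ran from 63.0% to 84.5%.

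**Figure D2:**
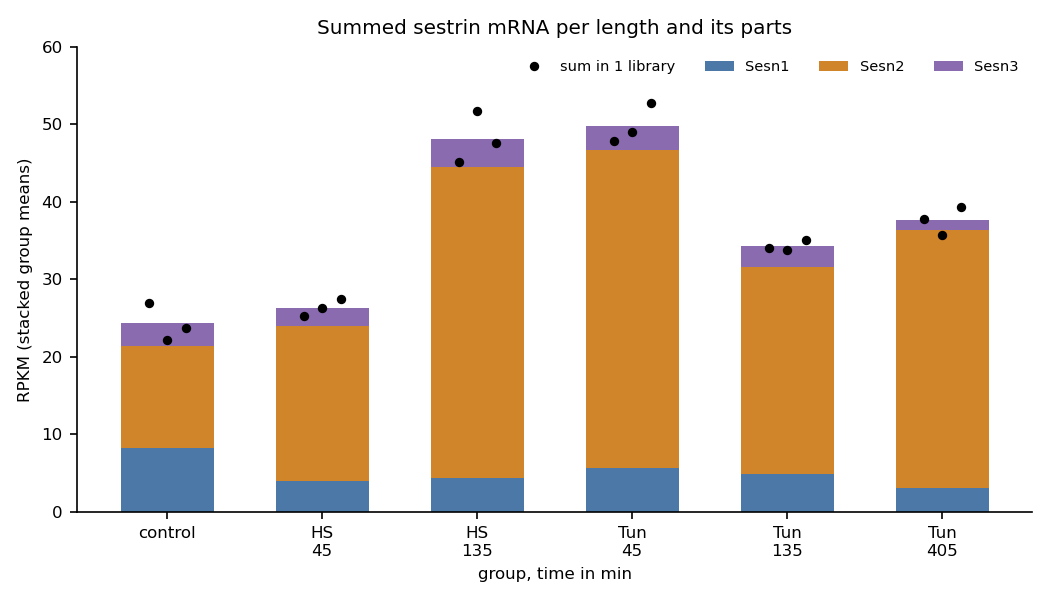
Summed RPKM of Sesn1, Sesn2 and Sesn3 (stacked group means, linear axis from 0) in the 6 groups, with the sum in each library as a black point. The sum stayed near the control value of 24.3 RPKM at 45 min of HS and reached 48.2 and 49.8 RPKM at 135 min of HS and 45 min in tunicamycin. Differences between groups depend on the authors' scaling by library size. Sesn2 had the largest mean share in every group, from 54.4% in control to 88.6% at 405 min in tunicamycin.

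Ddit4, a short gene on chromosome 10 of mm9 from 59412423 to 59414518 on the minus strand, rose under tunicamycin. The control samples had 29.6, 24.0 and 24.8 CPM. With tunicamycin it had 45.5, 53.0 and 54.1 CPM at 45 min, 64.2, 51.5 and 35.9 CPM at 135 min, and 55.8, 63.6 and 64.8 CPM at 405 min. All 9 tunicamycin samples lay above all 3 controls. Under HS, Ddit4 had 34.7, 42.7 and 24.6 CPM at 45 min, where replicate 3 lay within the control range. At 135 min of HS it had 36.0, 61.4 and 52.3 CPM, above all controls.

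The rise of Ddit4 passed the test at 45 min in tunicamycin (log2 fold change 0.97, SE 0.142, adjusted p = 0.0121, edgeR) and at 405 min (1.25, SE 0.140, adjusted p = 0.000282, edgeR). At 135 min in tunicamycin the difference was close to that at 45 min (0.96), but with a SE of 0.234 it did not pass (adjusted p = 0.123, edgeR), while the exact test and DESeq2 called it (adjusted p = 0.0165 and 0.0149). The value at 135 min of HS was 0.93 (SE 0.252, adjusted p = 0.0605, edgeR), and at 45 min of HS it was 0.38 (adjusted p = 0.373, edgeR). The call at 45 min in tunicamycin was lost without control replicate 2 or 3 or tunicamycin replicate 2 (0.91 to 0.94, adjusted p = 0.0706 to 0.0939, edgeR). These fits called 0.801%, 0.754% and 0.456% of all genes, against 6.17% with every library. At 135 min of HS the exact test and DESeq2 called Ddit4 (adjusted p = 0.0223 and 0.0168), as did the fit without HS replicate 1 (1.12, adjusted p = 0.0193, edgeR), and at 45 min of HS the fit without replicate 3 called it (0.56, adjusted p = 0.0451, edgeR). The GC offset called it at 135 min of HS too, but with a log2 fold change of 0.59 (adjusted p = 0.0252, edgeR). With an offset for GC content its value at 45 min of HS turned to -0.092 (adjusted p = 0.687, edgeR), so that no direction is given for it there.

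Of the 2 genes of the TSC complex, Tsc1 passed the test at the latest time and Tsc2 did not. Tsc1 (chromosome 2 of mm9, 28496763 to 28546687, plus strand) had 91.0, 81.6 and 80.3 CPM in control and 51.1, 44.6 and 45.5 CPM at 405 min in tunicamycin. In the other 4 stressed groups its 12 samples ranged from 71.1 to 101 CPM, around the control values. Tsc1 fell by 0.82 on the log2 scale at 405 min (SE 0.122, adjusted p = 0.00107, edgeR). Its differences from control in the other 4 groups lay between -0.048 and 0.053 (adjusted p = 0.872 to 0.968, edgeR).

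Tsc2 (chromosome 17 of mm9, 24732882 to 24769574, minus strand) had 153, 110 and 110 CPM in control, with replicate 1 well above the other two. At 405 min in tunicamycin it had 118, 108 and 110 CPM, which overlapped with control, and the log2 difference was -0.13 (SE 0.158, adjusted p = 0.520, edgeR). At 135 min of HS and at 135 min in tunicamycin Tsc2 had means of 156 ± 9.35 and 150 ± 4.70 CPM (SD, n = 3), with log2 differences from control of 0.33 and 0.28 (adjusted p = 0.317 and 0.442, edgeR). Tsc2 shares 578 bases with Pkd1 on the opposite strand, and since the sources used here do not say that counting was by strand, reads there may come from either gene. The ratio of Tsc2 to Tsc1 in RPKM, taken within each library, was 1.87 ± 0.251 in control and 2.99 ± 0.0806 at 405 min in tunicamycin (SD, n = 3). The lowest of the 3 ratios at 405 min was 2.90 and the highest of the control ratios 2.16.

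Of the Rag GTPase genes, Rragc was the most abundant of the 8 genes in control and Rragd the least. Rragc (chromosome 4 of mm9, 123594676 to 123614240, plus strand) had 121, 122 and 137 CPM in control. Its span shares 322 bases with the pseudogene Gm12902 on the same strand. Under tunicamycin it had 105, 99.0 and 74.0 CPM at 45 min, 68.2, 82.0 and 88.1 CPM at 135 min, and 147, 113 and 111 CPM at 405 min. The first 2 groups lay wholly below control and the last overlapped with it. The log2 differences from control were -0.43, -0.65 and -0.016 at these times (adjusted p = 0.157, 0.135 and 0.934, edgeR), so none passed. DESeq2 called Rragc lower at 135 min in tunicamycin (-0.66, adjusted p = 0.0399). Under HS Rragc had 86.4, 96.5 and 120 CPM at 45 min and 155, 125 and 130 CPM at 135 min. The log2 differences were -0.33 and 0.11 (adjusted p = 0.339 and 0.713, edgeR), and without HS 45 min replicate 3 the former was -0.47 (adjusted p = 0.0494, edgeR), whereas with an offset for GC content it was 0.0098, so that no direction is given for it.

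Rragd (chromosome 4 of mm9, 33069973 to 33109155, plus strand) was counted with 30 to 187 reads per sample, 0.726 to 2.96 CPM, well above the floor of 3 reads. Its span shares 327 bases with the pseudogene Gm11943 on the opposite strand. Its control samples had 1.53, 1.54 and 1.83 CPM. HS gave 0.821, 1.15 and 1.28 CPM at 45 min, all below control, and 2.96, 1.48 and 2.51 CPM at 135 min. Log2 differences from control were -0.59 and 0.51 for HS (adjusted p = 0.290 and 0.321, edgeR). For tunicamycin they lay between -0.15 and -0.061 (adjusted p = 0.717 to 0.933, edgeR). In RPKM, Rragc exceeded Rragd by a ratio of 151 ± 4.81 in control (SD, n = 3), and over all 18 libraries this ratio ran from 85.1 to 204.

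**Figure D3:**
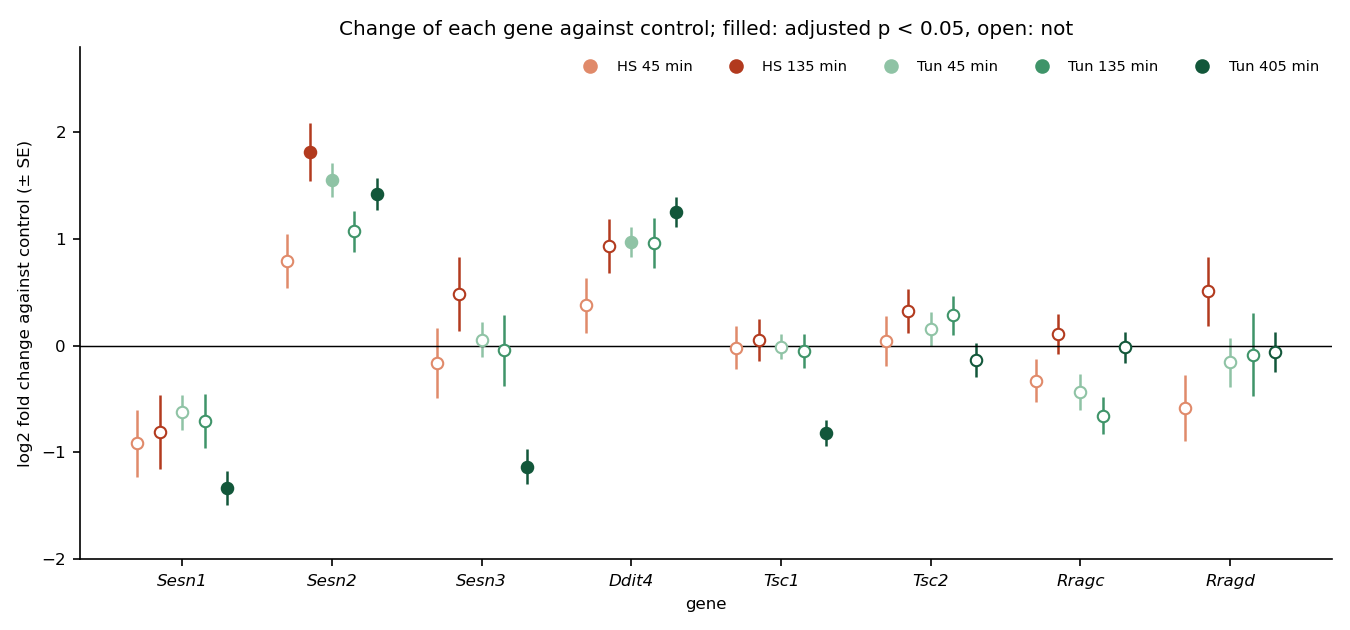
Log2 fold change against control with its standard error (SE) for the 8 genes (horizontal axis) in the 5 stress groups, from edgeR fits of 3 against 3 samples, with filled points for an adjusted p under 0.05. Sesn2 lies above 0 in all 5 groups and Sesn1 below 0 in all 5, and filled points below 0 occur only at 405 min in tunicamycin (Sesn1, Sesn3, Tsc1).

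The time points and the 2 stresses were also compared directly. Between 135 and 405 min in tunicamycin, 5 of the 8 genes passed the test, where 43.7% of all genes tested were called. Tsc1 was lower at 405 min, with a log2 fold change of -0.80 (SE 0.124, adjusted p = 0.00193, edgeR), and so were Sesn3 (-1.11, adjusted p = 0.0211), Sesn1 (-0.65, adjusted p = 0.0364) and Tsc2 (-0.44, adjusted p = 0.0164). Rragc was higher at 405 than at 135 min (0.61, SE 0.164, adjusted p = 0.0187, edgeR). The Tsc1 call was kept in all 6 fits that left out 1 library, whereas each of the other 4 calls was lost in 2 to 5 of them. Of all genes these fits called 27.9% to 63.8%, the most without replicate 1 at 135 min. Sesn1 and Sesn3 lost theirs in every such fit but the one without replicate 1 at 135 min (adjusted p = 0.099 to 0.115 and 0.0587 to 0.079, edgeR). Tsc2 lost its call without replicate 3 at 135 min or replicate 2 or 3 at 405 min (adjusted p = 0.0531 to 0.0902, edgeR), and Rragc without replicate 2 at 135 min or replicate 1 at 405 min (adjusted p = 0.0501 and 0.0613, edgeR). Sesn2 and Ddit4 were not called between these times (0.32 and 0.26, adjusted p = 0.121 and 0.350, edgeR).

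In the other 4 direct comparisons edgeR's quasi-likelihood test called 0 of the 8 genes. At an unadjusted p under 0.05 it counted 2010, 1481, 3061 and 2543 of all 12731 genes tested, in the order in which the comparisons follow. From 45 to 135 min in tunicamycin 0.291% of all genes were called. Sesn2 was there the 1 member with an unadjusted p under 0.05 (log2 fold change -0.48, adjusted p = 0.222, edgeR). From 45 to 135 min of HS 0% of all genes were called, and 2 members had an unadjusted p under 0.05, Sesn2 (0.97, adjusted p = 0.298, edgeR) and Rragd (1.06, adjusted p = 0.365, edgeR). Between tunicamycin and HS at 45 min, where 0.204% of all genes were called, Sesn2 and Ddit4 were the 2 with an unadjusted p under 0.05, with higher values under tunicamycin by 0.75 and 0.58 on the log2 scale (adjusted p = 0.144 and 0.198, edgeR). For these 3 comparisons the exact test and DESeq2 called 0 members as well. In the order given here, they called 2.69% and 4.85%, 1.57% and 3.17%, and 6.05% and 8.85% of all genes. Between the stresses at 135 min, where 2.12% of all genes were called, Rragc and Sesn2 had lower values under tunicamycin by -0.76 and -0.73 (adjusted p = 0.0869 and 0.177, edgeR) and an unadjusted p under 0.05. The exact test and DESeq2 each called 1 member there, beside 7.38% and 9.87% of all genes. At matched times, then, none of the 8 genes passed the quasi-likelihood test between HS and tunicamycin, which does not show that their levels were alike.

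Other genes of the pathway were followed in 6 lists with 56 genes, of which 54 were tested. At 405 min in tunicamycin 10 of the 54 were higher and 10 lower, where 23.3% and 23.5% of all genes were, and the median log2 fold change was -0.0011 over the 54 and -0.012 over all genes. Without tunicamycin replicate 2 or 3 the 10 lower became 5, and without control replicate 1 the 10 higher became 18. Of all genes 31.9%, 32.7% and 62.0% were called in these 3 fits, against 46.8% with every library. Along with these changes the summed RPKM of the 9 fibroblast markers was 4623 at 405 min against 9415 in control, and the part of this in the results was not tested.

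Among the mTORC1 subunits and Rheb, 2 of 7 were higher and 2 lower at 405 min in tunicamycin. Rheb, the GTPase that activates mTORC1, had 69.0 ± 5.30 CPM against 33.8 ± 8.24 in control (SD, n = 3; log2 fold change 1.05, adjusted p = 0.00252, edgeR). Akt1s1, which encodes the mTORC1 inhibitor PRAS40, was higher by 0.94 (adjusted p = 0.00434, edgeR). Rptor, which encodes the scaffold Raptor, was lower by a log2 fold change of -0.64 (adjusted p = 0.0387, edgeR), and this call was lost without any of the 3 tunicamycin samples (adjusted p up to 0.126). Of the other Rag and Ragulator genes, which anchor mTORC1 at the lysosome, 3 of 7 were higher and 0 lower. These were Lamtor3 (0.94, adjusted p = 0.0100, edgeR), Lamtor2 (0.93, adjusted p = 0.00109, edgeR) and Rraga (0.41, adjusted p = 0.0371, edgeR). The Rraga call was lost in 4 of the 6 fits without 1 library, those without control replicate 2 or any of the tunicamycin replicates.

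GATOR1 switches the Rag route off, GATOR2, the target of the sestrins, opposes GATOR1, and KICSTOR tethers GATOR1 to the lysosome. In this list 1 of 10 was higher and 2 lower at 405 min. Depdc5, a GATOR1 subunit, had 11.7 ± 0.652 CPM against 31.6 ± 4.77 in control (SD, n = 3; log2 fold change -1.42, adjusted p = 0.000231, edgeR). Itfg2, a KICSTOR subunit, was higher by 1.06 (adjusted p = 0.00036, edgeR). Mios, a GATOR2 subunit, was lower by a log2 fold change of -0.38 (adjusted p = 0.0466, edgeR), a call lost without control replicate 2 or 3 or tunicamycin replicate 2 or 3. Of the folliculin, CASTOR and other nutrient inputs, 0 of 7 were higher and 3 lower. Gatsl2, which encodes the arginine sensor homologue CASTOR2, went from 18.2 ± 2.96 to 5.52 ± 0.251 CPM (SD, n = 3; log2 fold change -1.70, adjusted p = 0.000141, edgeR). Fnip2, a partner of folliculin, and Sh3bp4, a negative regulator of the Rag GTPases, had log2 fold changes of -0.68 and -0.51 (adjusted p = 0.00438 and 0.0151, edgeR), the latter lost without tunicamycin replicate 2 or 3.

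The list of TBC1D7, the third TSC subunit, with the kinases and other regulators upstream of TSC had 1 of 13 higher and 1 lower at 405 min. The higher one was Trib3, a pseudokinase induced in ER stress that binds AKT, with 408 ± 19.7 CPM against 47.9 ± 5.91 in control (SD, n = 3; log2 fold change 3.11, adjusted p = 9.12e-06, edgeR). Akt1, the kinase that inhibits TSC2, was lower by a log2 fold change of -0.54 (adjusted p = 0.00629, edgeR). Of the mTORC1 substrates 3 of 10 were higher and 2 lower. Eif4ebp1 and Eif4ebp2, which encode 2 repressors of cap-dependent translation, parted, with 1006 ± 118 CPM against 331 ± 75.6 in control for the former (log2 fold change 1.62, adjusted p = 0.000395, edgeR). For the latter the levels were 87.4 ± 8.15 against 246 ± 125 CPM (SD, n = 3; log2 fold change -1.47, adjusted p = 0.00611, edgeR). Maf1, a repressor of RNA polymerase III, was higher by 0.95 (adjusted p = 0.00128, edgeR).

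**Figure D4:**
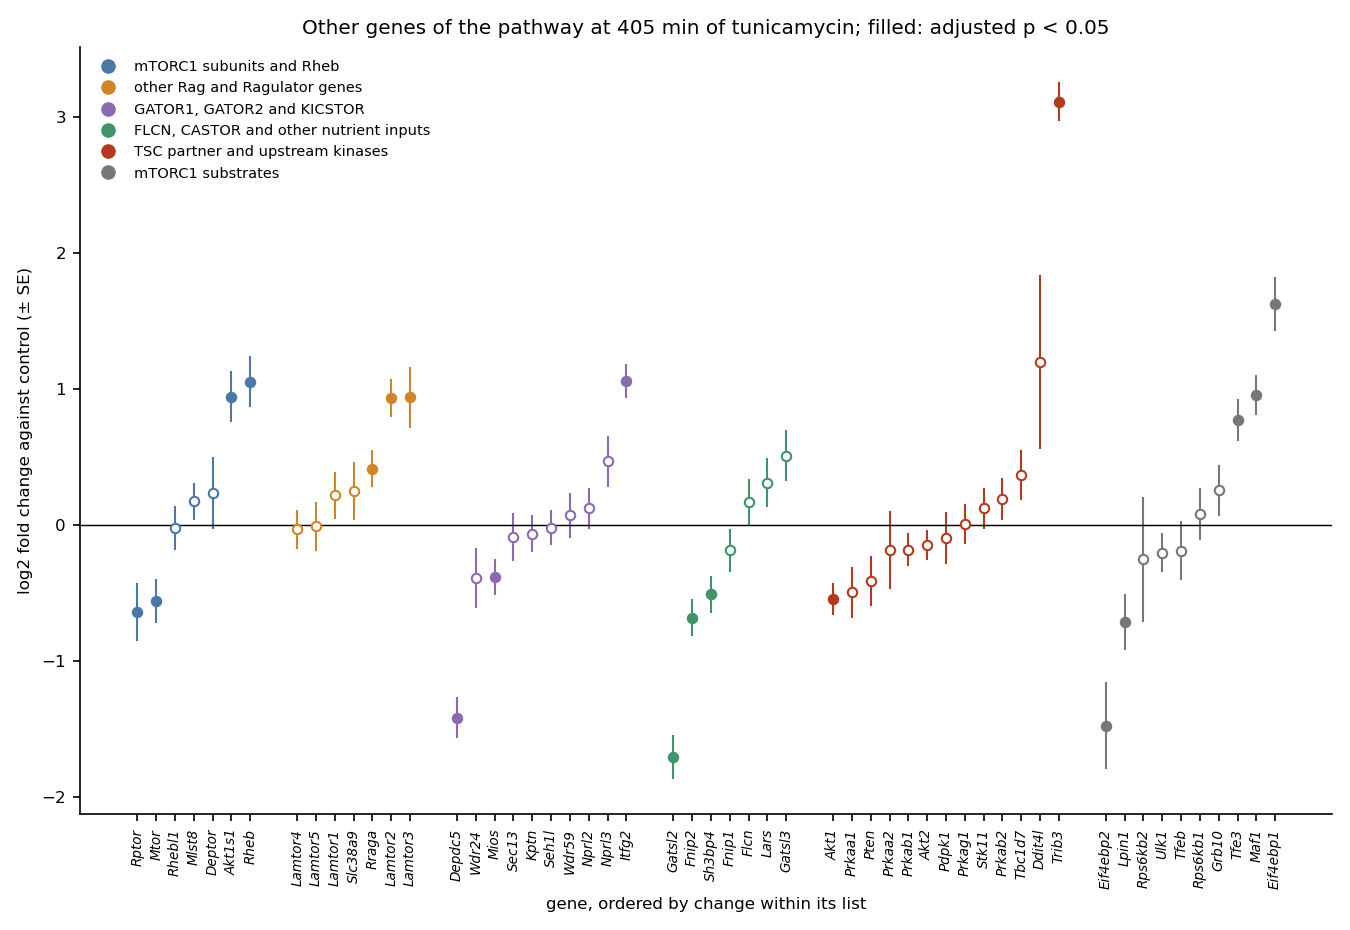
Log2 fold change with SE at 405 min in tunicamycin against control for the 54 other pathway genes tested, ordered by value within 6 lists, with filled points for an adjusted p under 0.05. The filled points are 10 above and 10 below 0, and Trib3 has the highest value, 3.11.

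The same lists held few calls at the earlier times. At 45 min of HS and at 135 min in tunicamycin edgeR's quasi-likelihood test called 0 of the 54, with 13 and 8 at an unadjusted p under 0.05. Of all 12731 genes tested, 2480 and 2369 had an unadjusted p under 0.05. The exact test called 0 and 2 of the 54 there, beside 2.32% and 4.35% of all genes. DESeq2 called 0 and 2 of them, beside 3.54% and 5.22%. Without replicate 3 of HS 45 min, 14 of the 54 were called higher and 11 lower in that comparison, where 45.4% of all genes were called. At 135 min of HS 4 were higher and 1 lower, where 4.75% and 2.64% of all genes were. Trib3 rose to 230 ± 79.4 CPM (SD, n = 3; log2 fold change 2.27, adjusted p = 0.0124, edgeR), and the others were Lamtor2 (1.28), Gatsl3, which encodes the arginine sensor CASTOR1 (1.45), Prkab2 (1.82) and Prkab1 (-1.28), the last 2 encoding alternative beta subunits of the energy sensor AMPK, with adjusted p between 0.0146 and 0.0401 (edgeR). These 5 calls were all lost when control replicate 2 or 3 or HS replicate 3 was left out, fits that called 0.118%, 0.0864% and 0.0864% of all genes (7.39% with every library). At 45 min in tunicamycin 2 of the 54 were higher and 1 lower, where 4.01% and 2.17% of all genes were. Trib3 had 275 ± 51.3 CPM (SD, n = 3; log2 fold change 2.53, adjusted p = 0.000999, edgeR), a call kept in all 6 fits without 1 library. Itfg2 (0.85, adjusted p = 0.0163, edgeR) and Lamtor5 (-0.79, adjusted p = 0.035, edgeR) were called in 2 and 1 of those fits, which called 0.456% to 19.6% of all genes.

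Of 8 reference genes for the stress responses, 7 were higher and 0 lower after 135 min of HS, while 3 were higher and 2 lower at 45 min in tunicamycin, and 4 higher and 2 lower at 405 min. For HS 45 min and tunicamycin 135 min 0 of the 8 were called by edgeR's quasi-likelihood test, with 6 at an unadjusted p under 0.05 in each, while the exact test and DESeq2 both called 5 at the former time and 4 at the latter. The shares of all genes called higher and lower were 4.75% and 2.64% for HS 135 min, 4.01% and 2.17% at 45 min in tunicamycin, and 23.3% and 23.5% at 405 min. The exact test and DESeq2 called 295 and 451 of all genes for HS 45 min and 554 and 665 for tunicamycin 135 min. Hspa1b, a heat shock gene, went from 5.76 ± 0.472 to 873 ± 530 CPM at 135 min of HS (SD, n = 3; log2 fold change 7.24, adjusted p = 0.0058, edgeR). Chac1, a gene of the ATF4 and CHOP branch, was higher at 135 min of HS (3.09, adjusted p = 0.0124, edgeR), at 45 min in tunicamycin (2.71, adjusted p = 0.00122, edgeR) and at 405 min (3.36, adjusted p = 2.39e-05, edgeR). Sesn2 was called in the same 3 groups. For HS 45 min and tunicamycin 135 min the quasi-likelihood test called only 0 and 17 of all genes, so calls could hardly fall elsewhere. The call of Chac1 at 135 min of HS was lost without control replicate 2 or 3 or HS replicate 3. In these fits 0.118%, 0.0864% and 0.0864% of all genes were called, against 7.39% with every library.

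For each member the genes with the most similar pattern were sought among 10919 genes with a mean of at least 50 reads, by Pearson's r of log2 CPM over the 18 samples. These values are a description, since the samples share libraries, depth and 6 groups. The genes nearest to Sesn2 were Zfp238 (r = 0.962), Zfp295 (0.950) and Chac1 (0.950), and those nearest to Ddit4 were Myc (0.906), Vegfa (0.906) and Chac1 (0.905). Nearest to Sesn1 were Adam23 (0.970), Fam5c (0.961) and Enpp4 (0.943), and nearest to Sesn3 Ablim1 (0.942), Pikfyve (0.933) and Igsf10 (0.930). Tsc1 was followed most closely by Dock9 (0.969), Plxna2 (0.968) and Itpripl1 (0.966). Lower values were found for Tsc2, with Cachd1 (0.886), Zfp398 (0.875) and Ino80d (0.868), and for Rragc, with Gdpd1 (0.883), Hsbp1 (0.882) and Cd63 (0.871). Rragd was nearest to Kitl (0.923), Ube2r2 (0.911) and Fas (0.895). No member was among the 3 genes nearest to another member.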

How the data were processed

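The authors sequenced poly(A) RNA of the 18 samples on an Illumina HiSeq, aligned it to mm9 and quantified RefSeq genes on DNAnexus. Aligner, counter, versions and use of strand are not given in the sources used here. Each deposited table covers 1 sample. Its estimated counts were made by the authors without normalization and carry few significant digits, and 15.5% to 20.4% of low values per sample were fractional. RPKM values, deposited beside them, come from the authors' scaling of these counts by gene length and library size. A score (RPKM centred and scaled per sample) and a signal (RPKM over its root mean square) were also deposited by the authors and were not used. Tables were joined by gene name, since 14 list the genes in another order than the first.

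Samples were grouped by the stress and time in their labels. After rounding of the estimated counts, 10 comparisons of 3 against 3 samples were made in R 4.3.3 with edgeR 4.0.16 (TMM, quasi-likelihood test), called at a Benjamini-Hochberg adjusted p under 0.05 over the 12731 genes detected by at least 1 read in all samples. SE values follow from the fold change and its F statistic, and printed CPM values are scaled by TMM over all 18 samples. The members and lists were chosen with earlier results of these data known. The genes named were the 8 members, of each list at most 3 called genes with the largest change per comparison with control, and for each member the 3 genes with the highest correlation. Replicates of a group differed by far more than sampling noise (chi-square per degree of freedom 15.9 to 899). Pairing by replicate number was checked by the correlation of same-numbered samples' deviations from their group means. Of the 10 comparisons, only tunicamycin 135 min against control had a value above 0.1 for every pair (0.287, 0.236 and 0.194), a hint from the data and not from the labels.

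Alternatives were the filters (1 read in any compared sample, or filterByExpr), scaling by DESeq2 size factors or by total counts alone, the exact test of edgeR, DESeq2 1.42.0 with its Wald test, 1 fit over all 6 groups with or without a surrogate variable (sva 3.50.0), the replicate block, an offset for transcript GC content (lowess, span 0.3) alone or with the block, a least absolute log2 fold change of 1, and leaving out each replicate in turn. GC content came from GENCODE transcripts on the same build and was found for 96.3% of the genes. The edgeR fit was tested on simulated data. Motifs were searched in RefSeq promoters of GRCm38.p6, and the CCAAT box was added to them after the sequences were seen. Cultures with unfolded DD are not analysed here.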

Additional observations from a re-analysis of the deposited data

Results flagged for a closer look

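Between 135 and 405 min in tunicamycin the difference from control itself changed for 5 of the 8 genes, tested directly between the 2 times with edgeR's quasi-likelihood test, a comparison in which 43.7% of all genes were called. The log2 fold change from 135 to 405 min was -0.65 for Sesn1 (adjusted p = 0.0364), -1.11 for Sesn3 (adjusted p = 0.0211), -0.80 for Tsc1 (adjusted p = 0.00193) and -0.44 for Tsc2 (adjusted p = 0.0164). For Rragc it was 0.61 (adjusted p = 0.0187), which took its mean from 79.4 ± 10.2 to 123 ± 20.1 CPM (SD, n = 3) after a control mean of 127 ± 9.21 CPM. With 1 library left out at a time, Tsc1 kept its call in all 6 fits and the other 4 genes lost theirs in 2 to 5, where 27.9% to 63.8% of all genes were called over the 6 fits. All 3 samples at 405 min lay on 1 side of all 3 samples at 135 min for each of these 5 genes.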

How the results depend on the processing

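The 5 calls against control at 405 min in tunicamycin (Sesn1, Sesn2, Sesn3, Ddit4 and Tsc1) kept their direction under every alternative run, and 4 to 5 members were called there under each, with 5 in every fit without 1 library. Elsewhere the number called depended on the setting. The cause was not tested in any case below. With 1 fit of all 6 groups the members called were 1 at 45 min of HS (main count 0), 2 at 135 min of HS (main 1), 3 at 135 min in tunicamycin (main 0), 1 between the times of HS, and 1 and 2 between the stresses at 45 and 135 min (main 0 in each). In all genes this fit called 10.6%, 25.5%, 3.23%, 7.11%, 9.98% and 13.9% in that order. With 1 surrogate variable added they were 5 at 135 min of HS, 4 at 45 min in tunicamycin (main 2), 4 at 135 min in tunicamycin, 4 between the times of HS, 1 between 45 and 135 min in tunicamycin, and 2 and 4 between the stresses, where it called 40.4%, 25.7%, 21.6%, 25.7%, 11.3%, 14.0% and 34.6% of all genes. The GC offset gave 2, 1, 1, 1, 2 and 2 at 135 min of HS, at 135 min in tunicamycin, between the times of HS, between 45 and 135 min in tunicamycin, and between the stresses at 45 and 135 min, beside 20.7%, 2.23%, 0.84%, 2.06%, 3.94% and 11.3% of all genes. The exact test gave 2, 2 and 1 and DESeq2 2, 3 and 1 at 135 min of HS, at 135 min in tunicamycin and between the stresses at 135 min. Of all genes the exact test called 15.7%, 4.35% and 7.38% there, and DESeq2 17%, 5.22% and 9.87%. At 45 min in tunicamycin each of these 2 tests called 3 members (main 2), beside 11.9% and 14.5% of all genes. Total counts without TMM gave 1 between the stresses at 45 min, beside 0.911% of all genes. A least absolute log2 fold change of 1 left 1 call at 45 min in tunicamycin and 1 between 135 and 405 min (main 5).

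The replicate block, for groups that share only their numbers, left 0 members called at 135 min of HS, 0 at 45 min in tunicamycin and 1 between 135 and 405 min in tunicamycin. In all genes it took the calls at 135 min of HS from 941 to 0 and at 45 min in tunicamycin from 786 to 21. It changed no call of a member in the other comparisons, the paired one included.

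Leaving out 1 library gave 0 to 4 calls at 45 min of HS (4 without replicate 3), 0 to 3 at 135 min of HS, 1 to 4 at 45 min in tunicamycin, 2 to 7 between 135 and 405 min and 0 to 3 between the stresses at 45 min (3 without HS replicate 3). Of all genes such fits called 0.0864% to 19.4% at 135 min of HS, 0.456% to 19.6% at 45 min in tunicamycin and 27.9% to 63.8% between 135 and 405 min. Without HS 45 min replicate 3, 45.4% of all genes were called against control and 55.7% between the stresses, so the 4 and 3 of 8 stood near or below that share. At 135 min in tunicamycin the count was 0 in each of the 6 fits, where at most 0.479% of all genes were called.

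Other values changed sign, none of them called. At 45 min of HS they were 0.40 for Sesn3 with the surrogate variable, -0.092 for Ddit4 with the surrogate variable and with the GC offset and -0.093 with block and GC offset, 0.002 for Tsc1 with DESeq2 size factors and with the DESeq2 test and 0.12 with the surrogate variable, -0.095 with total counts, -0.11 with the GC offset and -0.14 with block and GC offset for Tsc2, and 0.0098 with the GC offset and 0.0059 with block and GC offset for Rragc. At 135 min of HS total counts gave -0.099 for Tsc1 and -0.044 for Rragc, and at 45 min in tunicamycin 0.10 for Tsc1. At 135 min in tunicamycin Sesn3 had 0.054 with the surrogate variable and Rragd 0.018 with the GC offset. At 405 min Rragc had 0.053 with the surrogate variable, 0.074 with the GC offset and 0.071 with the block added, and Rragd 0.12, 0.044 and 0.043 under the same 3. Without 1 library the ranges that crossed 0 were -0.51 to 0.025 (Sesn3), -0.14 to 0.081 (Tsc1) and -0.041 to 0.22 (Tsc2) at 45 min of HS, -0.066 to 0.13 (Tsc1) at 135 min of HS, and -0.044 to 0.12 (Sesn3), -0.045 to 0.044 (Tsc1) and -0.26 to 0.0063 (Rragd) at 45 min in tunicamycin. At 135 min in tunicamycin they were -0.33 to 0.25 (Sesn3), -0.10 to 0.011 (Tsc1) and -0.30 to 0.26 (Rragd), and at 405 min -0.23 to 0.052 (Tsc2), -0.18 to 0.052 (Rragc) and -0.13 to 0.012 (Rragd). Total counts moved the median log2 fold change of all genes from -0.032 to -0.19 at 45 min of HS, from -0.020 to -0.19 at 135 min of HS, from -0.0037 to 0.10 at 45 min in tunicamycin, from -0.023 to -0.13 between 45 and 135 min in tunicamycin, and from 0.054 to 0.33 and 0.032 to 0.18 between the stresses at 45 and 135 min.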
